A study of Mus musculus with 9 samples.

Results

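The expression of genes that carry fatty acids into muscle and burn them was examined in the tibialis anterior muscle of mice injected with dexamethasone (DEX) and fed turmeric extract (TE). The 42 genes were listed by symbol: fatty acid uptake, activation to acyl-CoA, the carnitine shuttle, mitochondrial beta-oxidation, electron transfer, acyl-CoA thioesterases, lipid droplet proteins and the fuel switch enzymes around them. Of these, 39 had at least 1 probe set annotated to exactly 1 symbol, among 18193 genes so annotated on the array, and the 39 had 69 such probe sets. For each gene the probe set with the highest mean signal over the 9 arrays was used. Acsl1, Cpt1b and Ucp2 had no probe set of this kind and were not analysed here.

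Each of the 9 arrays held the muscle of 1 mouse, with 3 mice in each of 3 groups. All were male C57BL/6J mice, 15 weeks old, on an AIN93-based diet. The Control mice received saline injections. The DEX mice received DEX, a synthetic glucocorticoid, at 5 mg/kg intraperitoneally each day for 7 days. The DEX + TE mice received the same injections and a diet with 2% TE, which by the methods began 5 days before the first injection, although the labels speak of TE after DEX. Mice with body and muscle weights close to their group's average had been chosen for the arrays, so the spread between them may understate that of all mice. A group that received TE without DEX is not among these arrays. The values are linear signal intensities in arbitrary units, scaled so that the trimmed mean of each array is 500. Between 58.5% and 65.2% of the probe sets on an array reached a signal of 50, and the arrays' median signal averaged 79.7 in Control, 74.2 in DEX and 88.5 in DEX + TE. All 10 markers of skeletal muscle that were checked, such as Ckm and Acta1, were measured, and none was below 50 on every array.

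In muscle, lipoprotein lipase on the capillary wall frees fatty acids from circulating triglyceride, and CD36, transport proteins and fatty acid binding protein move them into the fiber. Acyl-CoA synthetases activate them, the carnitine palmitoyltransferases carry them into mitochondria, and a cycle of dehydrogenase, hydratase and thiolase reactions shortens them to acetyl-CoA, with electrons passed on by the electron transfer flavoprotein. Surplus fatty acids are stored in lipid droplets, coated by perilipins. Many of these genes are known targets of peroxisome proliferator-activated receptors (PPARs), and glucocorticoids and fasting are known to shift muscle from glucose towards fat.

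The promoters of these genes were searched for the binding letters of the receptors concerned, and the 250 bases before the gene start are printed for 4 members, to show the sequence in front of genes that the values below turn on. These are Plin5, whose signal differed most clearly between DEX and Control, and Pdk4, whose signal was lowest in DEX + TE. The remaining ones are Hadh and Mlycd, from the 13 members whose DEX and Control arrays did not overlap. Neither of them passed the thresholds given below. The letters come from RefSeq (GRCm38.p6), read 5′ to 3′ towards the gene, and capitals mark a match to a searched motif.
Plin5 (chr17:56117549-56117798, minus strand): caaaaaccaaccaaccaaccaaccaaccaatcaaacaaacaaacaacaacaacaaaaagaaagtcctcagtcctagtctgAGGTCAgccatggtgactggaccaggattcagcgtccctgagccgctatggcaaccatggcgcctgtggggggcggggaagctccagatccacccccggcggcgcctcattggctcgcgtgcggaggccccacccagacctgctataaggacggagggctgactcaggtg
Pdk4 (chr6:5496279-5496528, minus strand): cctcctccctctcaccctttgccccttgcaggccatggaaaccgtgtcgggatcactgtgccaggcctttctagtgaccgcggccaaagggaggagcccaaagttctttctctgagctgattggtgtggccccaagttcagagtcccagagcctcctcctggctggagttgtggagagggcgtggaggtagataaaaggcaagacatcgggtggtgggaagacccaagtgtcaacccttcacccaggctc
Hadh (chr3:131272102-131272351, minus strand): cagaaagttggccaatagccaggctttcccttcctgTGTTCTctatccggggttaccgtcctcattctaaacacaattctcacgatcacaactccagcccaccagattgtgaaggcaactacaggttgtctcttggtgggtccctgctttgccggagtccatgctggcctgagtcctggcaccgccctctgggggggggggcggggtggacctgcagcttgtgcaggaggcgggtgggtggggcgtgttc
Mlycd (chr8:119394644-119394893, plus strand): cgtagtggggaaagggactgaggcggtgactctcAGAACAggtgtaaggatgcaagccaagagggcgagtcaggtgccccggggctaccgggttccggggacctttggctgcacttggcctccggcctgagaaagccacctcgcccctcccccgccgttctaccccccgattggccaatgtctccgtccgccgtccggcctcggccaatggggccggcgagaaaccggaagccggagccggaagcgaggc

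The Plin5 window held AGGTCA 170 bases before the start, the 6 letters that 1 partner of several nuclear receptor pairs binds. The Hadh window held TGTTCT 214 bases before the start and the Mlycd window held AGAACA 216 bases before it, the 6 letters that 1 glucocorticoid receptor molecule binds, on either strand. The Pdk4 window held no match. Of the 42 listed members 34 had a promoter in the RefSeq table, and windows of 300 bases (250 before the start and 50 after) were searched on both strands. AGAACA was present in 5 of the 34 (Acsl5, Mlycd, Hadh, Acot1 and Lpin1), or 14.7%, against 21.3% of 27025 genes. Hadh and Mlycd, printed above, are among these 5, so the printed windows hold AGAACA more often than the members do. The full glucocorticoid palindrome, AGAACA and TGTTCT with 3 bases between them, was in 0 of the 34 and in 0.0111% of all genes. The PPAR direct repeat, 2 copies of AGGNCA with 1 base between them, was in 0 of the 34 against 0.451% of all genes, and the estrogen-related receptor element TNAAGGTCA was in 0 against 1.43%. AGGTCA, which is contained in TNAAGGTCA and can lie inside the direct repeat, was searched after the letters had been seen and was in 9 of the 34 (26.5%) against 18.1% of all genes. These counts describe letters in short windows and say nothing of binding.

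Of the 39 genes, 1 rose with DEX injection and none fell by the thresholds of the study's methods, an adjusted p (limma, Benjamini-Hochberg over 29269 probe sets) under 0.05 together with a log2 difference of 0.6 or more in size. The gene that rose was Plin5, whose protein coats lipid droplets in oxidative tissues and joins them to mitochondria. None of the enzymes of the beta-oxidation cycle was called. A log2 difference between DEX and Control smaller than 0.2 in size was seen in 18 of the 39 members (46.2%), near the share of all probe sets tested (43.9%). By value 25 were higher in DEX than in Control, Acot1 among them, and 14 were lower. The median log2 difference was 0.08, and over all probe sets tested it was −0.03. Leaving aside Acot1, which was below 50 on all 3 Control arrays and so has no exact difference, the range ran from −0.59 for Lpl to 1.35 for Plin5.

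The share of all probe sets called was 0.232% for higher and 0.27% for lower in DEX against Control, so 1 and 0 of 39 members stand beside these. In numbers these were 68 higher and 79 lower probe sets, which median centring turned into 68 and 42. Without adjustment, 5 members were higher at p under 0.05, where 6.1% of all probe sets were, and 6 were lower, where 8.33% were. Acot1 was among the 5. It passed the filter on low signal only through the injected groups, which had to place it higher there. The 3 DEX arrays did not overlap with the 3 Control arrays in 7 members that were higher (17.9%, against 9.07% of all probe sets) and in 6 that were lower (15.4%, against 12.1%). The share of non-overlapping members lay above the background for higher genes and near it for lower ones, without a test of either difference. The background is not matched for brightness. A mean signal under 1000 was found in 20.5% of the members and in 71.1% of the 13676 genes whose chosen probe set was tested. Rank Product, the test named in the study's methods, called 0 members in each direction. Of all 29269 probe sets it called 28 higher and 49 lower, so 0 of 39 stands near that share. The test was run here on the deposited linear signals, while the methods apply it to RMA (Robust Multi-array Average) values. The study reported more probes in each direction for DEX, so these counts do not repeat its own.

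**Figure D1:**
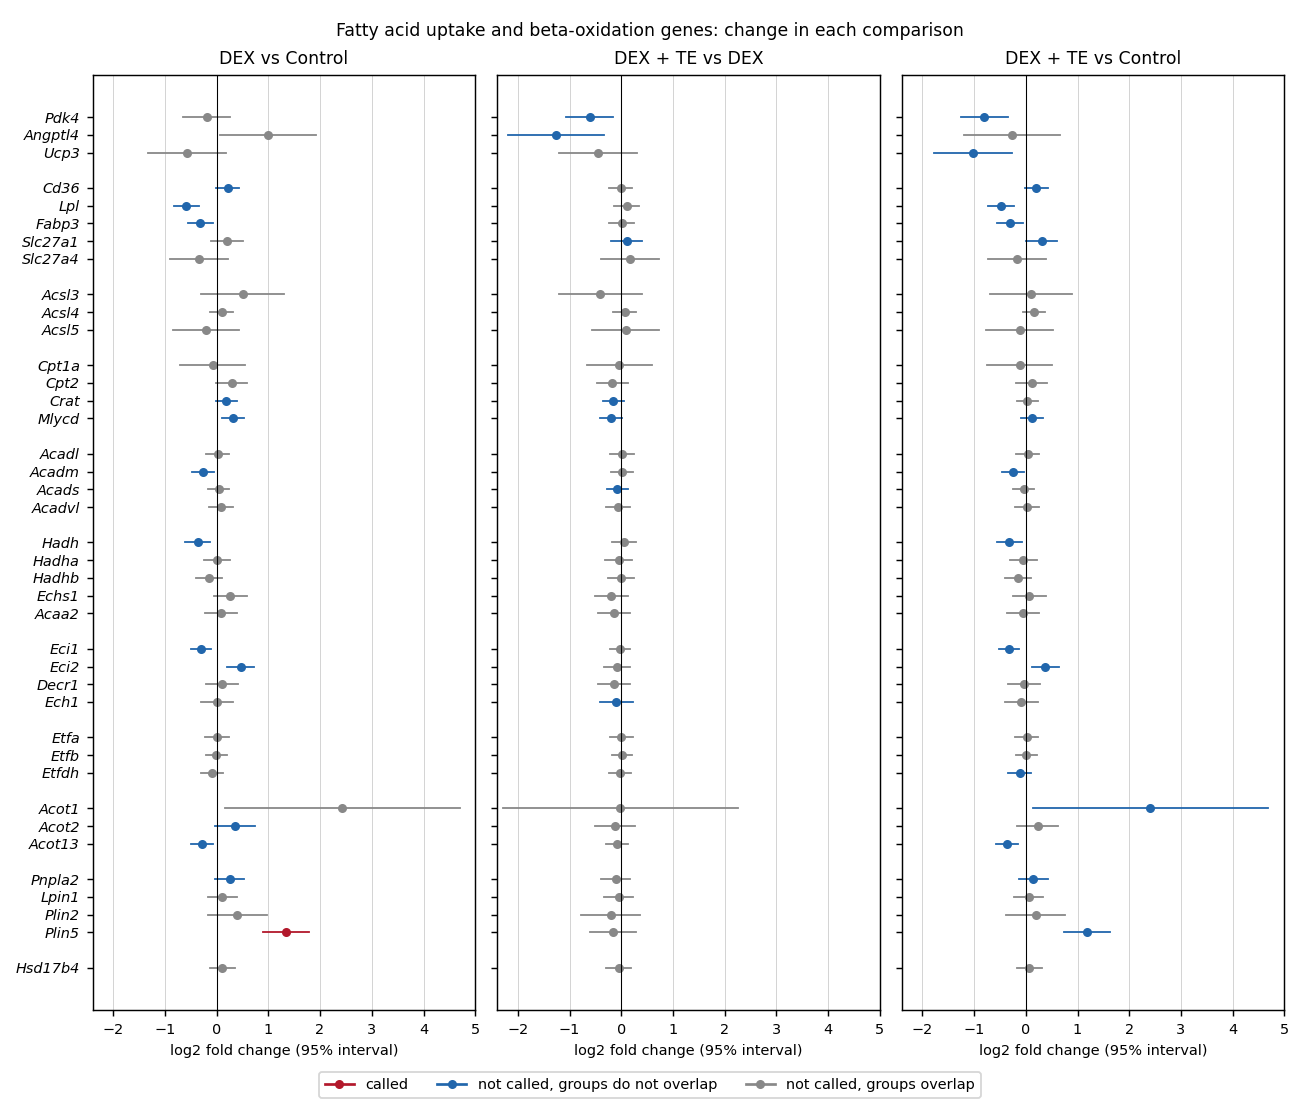
Log2 fold change (horizontal axis, points) with 95% interval (lines) of the 39 genes, grouped from top to bottom by role, in each of the 3 comparisons of 3 against 3 mice. Plin5 at 1.35 in DEX against Control is the only point marked as called, blue marks genes whose 3 arrays in one group all lie above or below those of the other, and Acot1, with the widest lines, was below 50 on all 3 Control arrays, so that its points against Control are not exact values.

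TE supplementation was followed by smaller differences. In DEX + TE against DEX 0 members were called higher and 0 lower, where 0.00683% of all probe sets (2 of 29269) were called in each direction, or 0 higher and 4 lower after median centring. Without adjustment, 0 members were higher (6.2% of all probe sets) and 2 lower (1.56%), namely Pdk4 and Angptl4. The groups did not overlap in 1 member that was higher (2.56%, against 10.1% of all probe sets) and in 6 that were lower (15.4%, against 4.75%). By value 28 of the 39 were lower in DEX + TE than in DEX, or 71.8%, where 40.9% of all probe sets were lower. The size was small: 34 of the 39 had a log2 difference under 0.2, and the median was −0.05, against 0.05 over all probe sets. This count depended on the scale, with 39 of 39 lower after centring each array on its median and 31 of 39 after quantile normalization. Median centring moved the median of all probe sets in this comparison to −0.21, and the members' median then was −0.31.

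In DEX + TE against Control 0 members were called higher, where 0.222% of all probe sets were, and 0 were called lower, where 0.157% were. The 65 higher and 46 lower probe sets behind these shares became 49 and 62 with median centring. Without adjustment, 4 were higher (7.95% of all probe sets) and 8 lower (5.84%). The groups did not overlap in 7 members that were higher (17.9%, against 12.4%) and in 9 that were lower (23.1%, against 10.3%). Acot1, whose direction the filter on low signal had set, was among the 4 and the 7, and among those higher by value. By value 20 were higher and 19 lower, with a median log2 difference of 0.01 against 0.05 over all probe sets, while after median centring 8 were higher and 31 lower. Rank Product called 0 members here and 0 in DEX + TE against DEX. Of all 29269 probe sets it called 63 higher and 69 lower here. In DEX + TE against DEX it called 20 higher and 11 lower. The 3 comparisons share arrays in pairs, so a gene's values in them are not independent of one another. With 3 mice a group a difference that misses the threshold is not shown to be absent.

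**Figure D2:**
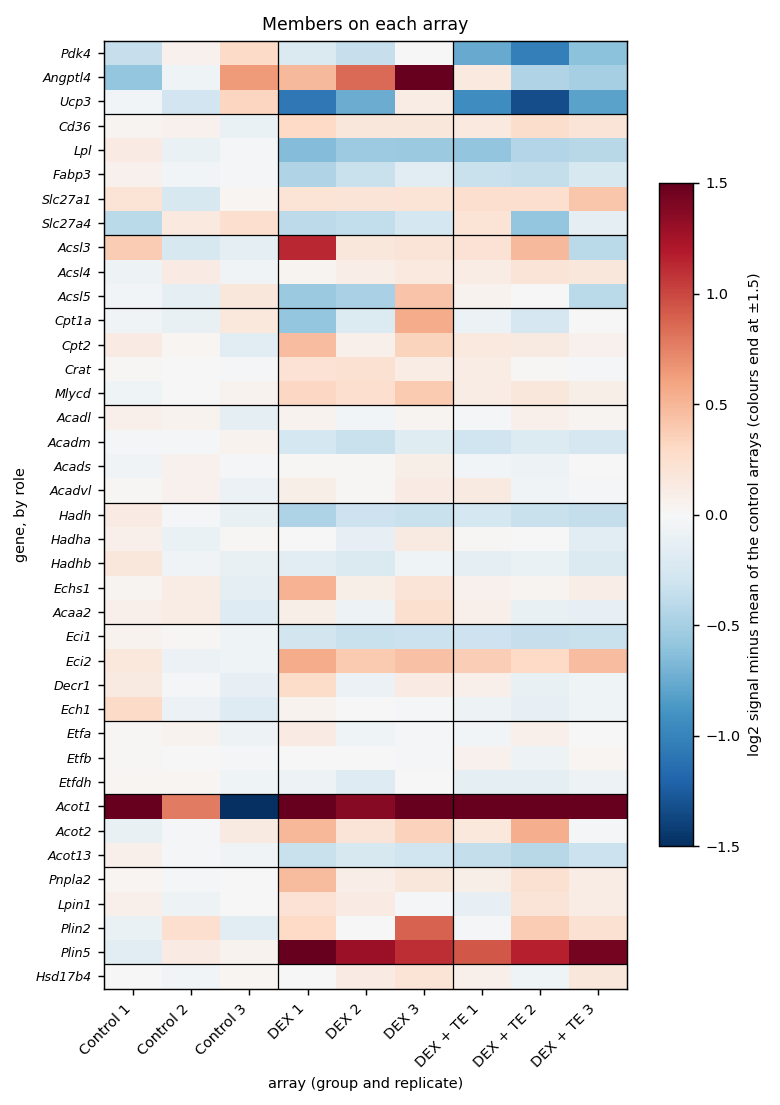
Log2 signal of each of the 39 genes on each of the 9 arrays, minus the mean of that gene's 3 Control arrays (colour, ending at 1.5 in either direction), with genes in rows by role and arrays in columns by group. Most rows are pale in every column, while Plin5 and Acot1 are red on all 6 DEX and DEX + TE arrays and Lpl is blue on the same 6. The colour of Acot1 is set by Control arrays below 50.

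The lipid droplet genes held the one call. Plin5 signal was 1281, 1575 and 1494 in Control, 4546, 3508 and 3103 in DEX, and 2746, 3237 and 3919 in DEX + TE. All 6 injected mice lay above the highest Control mouse, and the DEX and DEX + TE arrays overlapped. The rise with DEX was 2.54-fold (log2 1.35, SE 0.19, limma adjusted p = 0.0397, n = 3 mice per group). DEX + TE lay 2.26-fold above Control by value (log2 1.18, SE 0.19, adjusted p = 0.0641), and the difference between DEX + TE and DEX was −0.17 with a 95% interval of −0.61 to 0.28, which holds 0.

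A second probe set of Plin5 gave the same picture with less spread. Its signal was 941, 880 and 822 in Control, 2732, 2277 and 2260 in DEX, and 2091, 1919 and 2056 in DEX + TE. The log2 difference between DEX and Control was 1.46 (limma adjusted p = 0.00541), that between DEX + TE and Control 1.20 (adjusted p = 0.0124), and that between DEX + TE and DEX −0.26 (adjusted p = 0.653). On the first probe set the call rests on all 9 arrays: leaving out any 1 of them gave a log2 difference of 1.19 to 1.47 with an adjusted p of 0.062 to 0.115. On the second probe set the same 9 repeats gave 1.37 to 1.505 with an adjusted p of 0.0141 to 0.0288.

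The other 3 members of this group, Plin2, Pnpla2 and Lpin1, were higher in DEX than in Control by value and none was called. Plin2, the perilipin found on droplets of most tissues, was at 0.40 (adjusted p = 0.502), and Pnpla2, the lipase that starts triglyceride breakdown, at 0.25 (adjusted p = 0.399) with DEX arrays that did not overlap with Control. Lpin1, which makes diacylglycerol and coactivates PPAR targets, was at 0.11. In DEX + TE against DEX all 4 were lower by value, from −0.21 to −0.05.

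**Figure D3:**
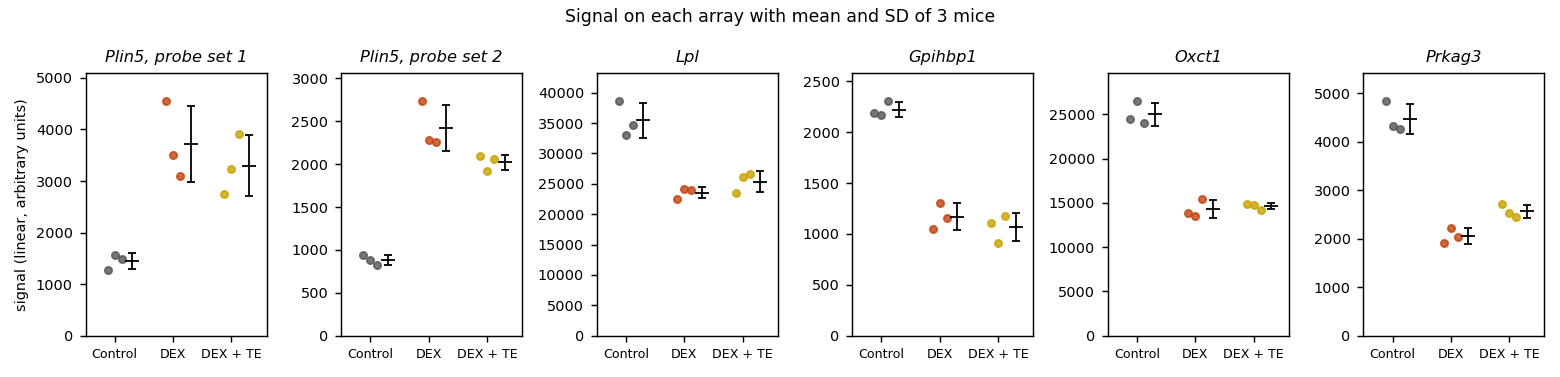
Signal (vertical axis, linear, from 0) on each array (points) with the mean and SD of 3 mice (bars) for both probe sets of Plin5, for Lpl, and for the 3 other pathway genes that were called, Gpihbp1, Oxct1 and Prkag3. Both Plin5 panels show the Control arrays lowest, at 1281 to 1575 and at 822 to 941, and the other 4 panels show the Control arrays highest.

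Among the fuel switch genes, Pdk4 and Angptl4 were lower in DEX + TE than in DEX by value, and neither passed the adjusted test. Pdk4, a kinase that shuts off pyruvate dehydrogenase and so spares glucose, had a signal of 14651, 19495 and 22826 in Control, 16040, 14669 and 18558 in DEX, and 11044, 9181 and 12154 in DEX + TE. The 3 DEX + TE arrays lay below all 6 others, while DEX and Control overlapped. DEX + TE was 1.52-fold below DEX (log2 −0.61, SE 0.19, adjusted p = 0.545) and 1.74-fold below Control (log2 −0.80, SE 0.19, adjusted p = 0.155), and DEX differed from Control by −0.19 (95% interval −0.65 to 0.26).

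Angptl4, a secreted inhibitor of lipoprotein lipase and a known PPAR and glucocorticoid target, was dim. Its signal was 89.7, 129 and 209 in Control, 188, 241 and 420 in DEX, and 149, 98.4 and 95 in DEX + TE. The DEX arrays lay above all DEX + TE arrays and overlapped with Control. The log2 difference was 0.99 between DEX and Control (SE 0.40, adjusted p = 0.319) and −1.26 between DEX + TE and DEX (SE 0.40, adjusted p = 0.542). Its second probe set was below 50 on every array and was not tested.

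Ucp3, the mitochondrial carrier of muscle that is known to follow fatty acid supply, had a signal of 2402, 2034 and 3108 in Control, 1175, 1483 and 2683 in DEX, and 1296, 983 and 1423 in DEX + TE. The DEX + TE arrays lay below all Control arrays, and DEX overlapped with both other groups. DEX + TE was 2.03-fold below Control (log2 −1.02, SE 0.32, adjusted p = 0.243), and DEX was 1.48-fold below it (log2 −0.57, adjusted p = 0.471). The second probe set of Ucp3 gave −1.16 (adjusted p = 0.219) and −0.70 (adjusted p = 0.405).

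Of the 5 uptake genes, Lpl and Fabp3 were lower in both DEX-injected groups than in Control by value, and Cd36 was higher. Lpl, the lipase that frees fatty acids at the capillary wall, had a signal of 38566, 32992 and 34747 in Control, 22451, 24169 and 23990 in DEX, and 23478, 26108 and 26556 in DEX + TE. All 6 injected mice lay below the lowest Control mouse, and the 2 injected groups overlapped. DEX was 1.503-fold below Control (log2 −0.59, SE 0.10, adjusted p = 0.0685) and DEX + TE 1.40-fold below it (log2 −0.48, SE 0.10, adjusted p = 0.126), which passed neither threshold. The second probe set of Lpl gave −0.57 and −0.41 (adjusted p = 0.112 and 0.24).

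Lpl had a mean signal above 10000, and genes this bright were mostly lower in DEX by value. Of the 501 genes with a mean signal of at least 10000, 75.2% were lower in DEX than in Control, with a median log2 difference of −0.15. To this class belong 13 of the 39 members (33.3%), against 3.66% of the 13676 genes whose chosen probe set was tested. The 13 had a median of −0.01, with 7 lower. Quantile normalization, which gives each array the same distribution, moved the median of the bright genes to −0.02, the difference of Lpl to −0.38, of Fabp3 from −0.32 to −0.13, of Acadm from −0.26 to −0.08, and of Hadh from −0.37 to −0.21. The lower values of these 4 genes in DEX thus depend in size on how the arrays were scaled.

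Fabp3, the fatty acid binding protein of heart and muscle, was at −0.32 in DEX (adjusted p = 0.241) and −0.31 in DEX + TE (adjusted p = 0.278) against Control, with no overlap in either comparison. Cd36, the fatty acid translocase of the membrane, was at 0.21 in DEX (adjusted p = 0.365) and 0.20 in DEX + TE (adjusted p = 0.408), again with no overlap. Its other 2 probe sets gave 0.09 and 0.50 in DEX and −0.02 and 0.44 in DEX + TE, none of them called. The transport proteins Slc27a1 and Slc27a4 were at 0.20 and −0.34 in DEX and at 0.31 and −0.17 in DEX + TE, and none of these passed. All 5 uptake genes differed by less than 0.2 between DEX + TE and DEX.

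The 3 acyl-CoA synthetases measured, which activate long-chain fatty acids, had log2 differences of −0.20 to 0.50 between DEX and Control and 0 calls. Acsl3 differed most, with a signal of 782, 509 and 539 in Control, 1315, 676 and 685 in DEX, and 698, 836 and 451 in DEX + TE. All groups overlapped, and 1 DEX mouse, at 1315, stood above the other DEX mice. The log2 difference between DEX and Control was 0.50 (SE 0.34, adjusted p = 0.549) and that between DEX + TE and DEX −0.40 (adjusted p = 0.813). The other 2 probe sets of Acsl3 were dimmer and gave 1.20 and 1.54 in DEX against Control (adjusted p = 0.255 and 0.282).

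In the carnitine shuttle, Mlycd and Crat were higher in DEX than in both other groups by value on the probe sets used, with small differences and 0 calls. Mlycd, which breaks down malonyl-CoA, the inhibitor of fatty acid entry into mitochondria, had a signal of 2197, 2307 and 2388 in Control, 2855, 2734 and 3005 in DEX, and 2472, 2592 and 2448 in DEX + TE. The 3 groups were fully separated, with DEX + TE between the other groups. The log2 difference was 0.32 between DEX and Control (SE 0.09, adjusted p = 0.179), −0.19 between DEX + TE and DEX (SE 0.09, adjusted p = 0.672) and 0.12 between DEX + TE and Control (adjusted p = 0.568).

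Crat, which buffers acetyl-CoA as acetylcarnitine, was at 0.19 in DEX against Control and −0.15 in DEX + TE against DEX, without overlap in either. Further probe sets of Crat gave 0.34 and −0.13 in DEX against Control, so they disagree there. In DEX + TE against DEX they gave −0.12 and −0.09, and none was called. Cpt2, the inner membrane step of the shuttle, was at 0.29 and −0.18 (adjusted p = 0.364 and 0.784), with overlap. Cpt1a, the outer membrane step that is typical of liver, was at −0.08 in DEX against Control, with a 95% interval of −0.70 to 0.55.

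The acyl-CoA dehydrogenases, which take the first step of each turn of the cycle, were nearly level across the groups except Acadm. Acadm, the medium-chain enzyme, had a signal of 24703, 24857 and 26124 in Control, 20937, 20034 and 22226 in DEX, and 20502, 21871 and 21214 in DEX + TE. All 6 injected mice lay below the lowest Control mouse. The log2 difference from Control was −0.26 in DEX (SE 0.09, adjusted p = 0.247) and −0.25 in DEX + TE (SE 0.09, adjusted p = 0.291), and between the injected groups it was 0.01 (95% interval −0.20 to 0.22). The very long-chain, long-chain and short-chain enzymes Acadvl, Acadl and Acads were at 0.08, 0.02 and 0.04 in DEX against Control.

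Of the 5 genes of the later steps, Hadh was the one whose groups did not overlap. Hadh, the 3-hydroxyacyl-CoA dehydrogenase for shorter chains, had a signal of 28059, 25567 and 23875 in Control, 18758, 20786 and 20389 in DEX, and 21487, 20446 and 20171 in DEX + TE. The injected mice again lay below all Control mice. The log2 difference from Control was −0.37 in DEX (SE 0.10, adjusted p = 0.169) and −0.32 in DEX + TE (adjusted p = 0.245). A second probe set gave −0.37 and −0.45, while the remaining, dim one gave −1.32 and 0.54, so the probe sets of Hadh disagree in DEX + TE. The trifunctional protein subunits Hadha and Hadhb were at 0.01 and −0.14 in DEX against Control, Echs1, the short-chain hydratase, at 0.26, and the thiolase Acaa2 at 0.09, all with overlapping groups.

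Among the enzymes that handle double bonds, Eci2 was higher and Eci1 lower in both injected groups than in Control by value. Eci2, an enoyl-CoA isomerase of peroxisomes and mitochondria, had a signal of 4412, 3710 and 3789 in Control, 5803, 5197 and 5385 in DEX, and 5119, 4876 and 5467 in DEX + TE. Every injected mouse lay above the highest Control mouse. The log2 difference from Control was 0.46 in DEX (SE 0.11, adjusted p = 0.128) and 0.38 in DEX + TE (SE 0.11, adjusted p = 0.211). Eci1, the mitochondrial isomerase, was at −0.31 (adjusted p = 0.169) and −0.33 (adjusted p = 0.168) with no overlap, and Decr1 and Ech1 were at 0.10 and 0.01 in DEX.

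The electron transfer genes Etfa, Etfb and Etfdh were level, with log2 differences between −0.12 and 0.01 in all 3 comparisons. Etfdh, which passes the electrons on to ubiquinone, had a signal of 7969, 7988 and 7502 in Control, 7432, 6815 and 7768 in DEX, and 7073, 7100 and 7388 in DEX + TE. DEX overlapped with Control, and DEX + TE lay just below it. The log2 difference was −0.09 in DEX (95% interval −0.31 to 0.12, adjusted p = 0.688) and −0.12 in DEX + TE (adjusted p = 0.59).

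The thioesterases, which release free fatty acids from acyl-CoA, went different ways by value. Acot1, the cytosolic enzyme and a known PPAR-alpha target, had a signal of 49.97, 29.1 and 3.33 in Control, 158, 43.7 and 110 in DEX, and 73.5, 108 and 90.8 in DEX + TE. The gene was below 50 on all Control arrays and on 1 DEX array, and passed the filter on low signal through the injected groups, which had to place it higher there. By the mean of the log2 signals, DEX lay 1.82-fold above a floor of 50 and DEX + TE 1.80-fold above it, without a test. The limma fit, which took the signals below 50 as they stand, gave an adjusted p of 0.318 and 0.338 against Control. DEX overlapped with Control, and DEX + TE lay above it. Acot1 and Acot2 are near copies of each other, and how far their probes share transcripts was not tested.

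Acot2, the mitochondrial enzyme, was at 0.35 in DEX (adjusted p = 0.397) without overlap and at 0.23 in DEX + TE. Acot13 was at −0.29 in DEX (adjusted p = 0.212) and −0.37 in DEX + TE (adjusted p = 0.156) against Control, with no overlap in either. Hsd17b4, the peroxisomal multifunctional enzyme, had a signal of 3065, 2981 and 3132 in Control, 3070, 3328 and 3519 in DEX, and 3235, 2934 and 3450 in DEX + TE. Its groups overlapped in every comparison, with a log2 difference of 0.11 in DEX against Control (95% interval −0.13 to 0.35, adjusted p = 0.67).

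**Figure D4:**
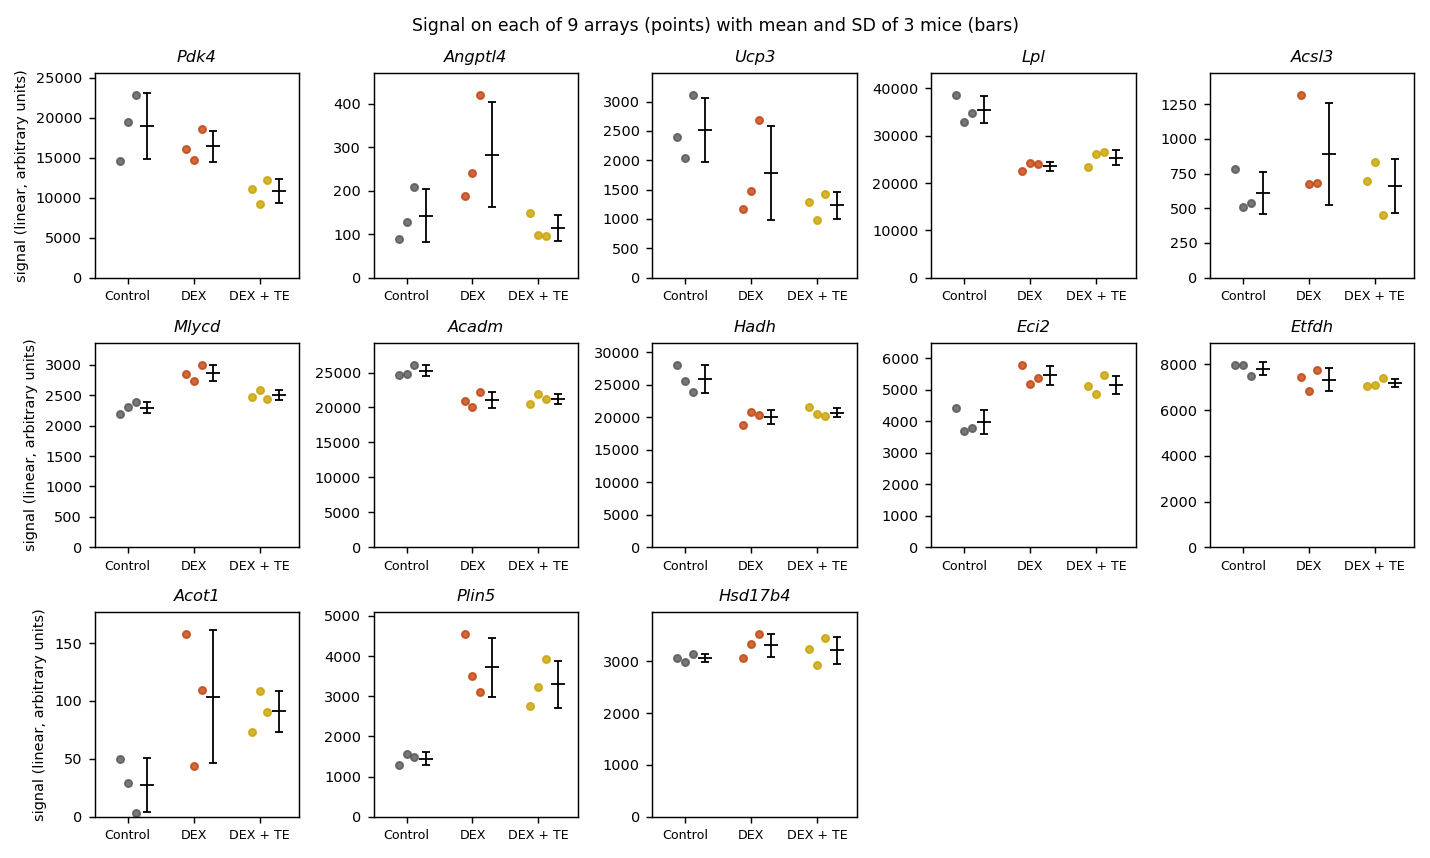
Signal (vertical axis, linear, from 0) of the 13 members whose arrays are given one by one, on each of the 9 arrays (points) with the mean and SD of 3 mice per group (bars). In the Pdk4 panel the DEX + TE arrays are lowest at 9181 to 12154, and in the Mlycd panel the 3 groups do not overlap, with DEX highest at 2734 to 3005.

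By value the members were mostly lower in DEX + TE than in DEX, above all those of middle brightness. Of the 18 with a mean signal from 1000 to 10000, 17 had a lower value there, with a median difference of −0.11, where 61.8% of the 3451 genes in that class were lower, with a median of −0.03. In DEX against Control 4 of the 18 were lower, with a median of 0.11, where 50.3% of that class were. Both counts use the same DEX arrays. Among the others, 6 of the 13 bright members and 5 of the 8 with a mean signal under 1000 were lower in DEX + TE than in DEX. After quantile normalization 16 of the 18, 9 of the 13 and 6 of the 8 were lower there.

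Other genes of the pathway were counted from a list of 117, of which 108 had a probe set with 1 symbol and 97 passed the filter. In DEX against Control 0 were called higher and 3 lower, and the same 3 genes, Prkag3, Gpihbp1 and Oxct1, were called lower in DEX + TE against Control, with 0 calls in DEX + TE against DEX. These 3 are 3.09% of the 97, where 0.27% of all probe sets were called lower in DEX and 0.157% in DEX + TE against Control. At an unadjusted p under 0.05, 9 were higher in DEX than in Control (9.28%, against 6.1% of all probe sets) and 17 lower (17.5%, against 8.33%). Between DEX + TE and DEX, 4 were higher in DEX + TE (4.12%, against 6.2%) and 3 lower (3.09%, against 1.56%). In DEX + TE against Control 5 were higher (5.15%, against 7.95%) and 14 lower (14.4%, against 5.84%). By value 56 of the 97 were lower in DEX than in Control (57.7%, against 53.2% of all probe sets), with a median of −0.05.

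Prkag3 encodes the regulatory subunit of AMP-activated protein kinase typical of fast muscle fibers. Its signal was 4838, 4330 and 4275 in Control, 1913, 2226 and 2043 in DEX, and 2723, 2531 and 2445 in DEX + TE. The 3 groups were separated, with DEX lowest and DEX + TE in between. It fell 2.18-fold with DEX (log2 −1.12, SE 0.11, adjusted p = 0.0114) and was 1.74-fold below Control in DEX + TE (log2 −0.80, adjusted p = 0.0372). The difference of 0.32 between DEX + TE and DEX was not called (adjusted p = 0.562). Leaving out any 1 array kept the call in DEX against Control (adjusted p 0.0319 to 0.0438) and lost it in DEX + TE against Control (0.0516 to 0.129).

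Gpihbp1, which anchors lipoprotein lipase to the capillary wall, had a signal of 2188, 2173 and 2302 in Control, 1046, 1308 and 1156 in DEX, and 1111, 915 and 1178 in DEX + TE. The injected groups lay well below Control and overlapped with each other. The fall was 1.91-fold in DEX (log2 −0.93, SE 0.13, adjusted p = 0.0409) and 2.09-fold in DEX + TE (log2 −1.06, SE 0.13, adjusted p = 0.0314). Lpl, its partner, was also lower by value in both injected groups but was not called, and a link between the genes was not tested. Without any 1 array the call in DEX was lost (adjusted p 0.0585 to 0.124), and in DEX + TE it was kept without the first DEX mouse and lost without any 1 of the other 8 (0.044 to 0.114 over the 9).

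Oxct1, which lets muscle burn ketone bodies, had a signal of 24519, 26456 and 24038 in Control, 13820, 13552 and 15491 in DEX, and 14833, 14806 and 14226 in DEX + TE. All injected mice were far below all Control mice. The fall was 1.75-fold in DEX (log2 −0.81, SE 0.10, adjusted p = 0.0254) and 1.71-fold in DEX + TE (log2 −0.77, adjusted p = 0.0314). Another probe set gave −0.64 (adjusted p = 0.188) and −0.39 (adjusted p = 0.404). Leaving out 1 array gave 0.0425 to 0.0916 in DEX and 0.0483 to 0.119 in DEX + TE, and the call was kept in both without the third DEX mouse and lost without any 1 of the other 8.

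The largest other log2 differences between DEX and Control in this list, none of them called, were those of Cidec, a lipid droplet protein of adipocytes (1.22, adjusted p = 0.188), with a signal near 50 on 2 Control arrays and of 22.2 on the other, which leaves its size uncertain, Angptl1 (−1.003, adjusted p = 0.0979), the liver X receptor Nr1h3 (0.89, adjusted p = 0.126), Angptl7 (−0.64, adjusted p = 0.276) and the mitochondrial acetyl-CoA synthetase Acss1 (0.63, adjusted p = 0.112). The 11 regulators tested, among them the receptors and coactivator that drive this program, had 0 calls, with Ppara at −0.37 (adjusted p = 0.468), Ppard at 0.06, Ppargc1a at 0.13, Esrra at −0.13 and the glucocorticoid receptor gene Nr3c1 at −0.07 in DEX. Klf15, a transcription factor that glucocorticoids induce, was at −0.13 in DEX against Control with overlap, and had no overlap at −0.67 in DEX + TE against DEX (adjusted p = 0.624) and at −0.80 in DEX + TE against Control (adjusted p = 0.275). The 9 genes of the pyruvate dehydrogenase complex and its kinases and phosphatases were all lower in DEX than in Control by value (−0.45 to −0.01), where 53.2% of all probe sets were, with 0 calls and 3 of the 9 lower at an unadjusted p under 0.05, against 8.33% of all probe sets.

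Muscle holds capillaries, fat cells, fibroblasts and macrophages beside its fibers, and in whole muscle fewer cells of a type and less RNA per cell cannot be told apart. Markers of these cells moved with the injections and, by value, with TE, and their part in the values above was not tested. In DEX + TE against DEX, 11 of 11 fibroblast, 10 of 11 adipocyte and 11 of 12 macrophage markers were higher by value. Over all probe sets 59.1% were. Of these markers 9, 5 and 4 were higher with no overlap, against 10.1% of all probe sets, and 0 were called. Of 12 endothelial markers 6 were higher by value there. Of 11 adipocyte markers 5 were higher in DEX than in Control with no overlap, Adipoq at 1.23 (adjusted p = 0.103), Retn at 1.19 (adjusted p = 0.0699), Lep at 0.35, and Cidec and Pck1, which were near or below 50 on most Control arrays. Of the 11, 2 were lower with no overlap. Over all probe sets 9.07% were higher and 12.1% lower with no overlap in this comparison. In DEX against Control 0 were called, and 2, Adipoq (log2 2.19, adjusted p = 0.0261) and Retn (1.69, adjusted p = 0.0321), were called higher in DEX + TE against Control. Of all probe sets 0.222% were called higher there. The summed signal of the 11, led by Car3 and Fabp4, which muscle and capillaries express too, was 82917 to 100586 in Control, 55204 to 73170 in DEX and 72799 to 80114 in DEX + TE.

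Of 12 endothelial markers, Cldn5 was called higher in DEX (1.56, adjusted p = 0.0341) and in DEX + TE against Control (2.12, adjusted p = 0.0132), and Gpihbp1, which is also on this list, lower in both. Of all probe sets 0.232% were called higher and 0.27% lower in DEX against Control. In DEX + TE against Control these shares were 0.222% and 0.157%. The summed endothelial signal overlapped between all groups, at 9111 to 10368 in Control, 8906 to 9893 in DEX and 9237 to 9543 in DEX + TE. That sum includes Gpihbp1 and markers that went either way by value, with Vwf at −0.97 and Kdr at 0.47 in DEX against Control. Of 11 fibroblast markers all were lower in DEX by value and 4 were called, where 0.27% of all probe sets were called lower. Their sums were 36751 to 56289 in Control, 19801 to 23782 in DEX and 30673 to 32485 in DEX + TE. Of 12 macrophage markers 0 were called in any comparison, with sums of 1874 to 3028, 1764 to 2357 and 2600 to 3006 in the same order. Of 5 brown adipocyte markers 0 were called, with sums of 1739 to 2040, 1487 to 1573 and 1375 to 1831.

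Fiber type markers are of interest because slow fibers burn more fat than fast ones. All 11 fast fiber markers were lower in DEX than in Control by value (median −0.44) with 0 called, and their sums were 598272 to 798685 in Control, 454524 to 568306 in DEX and 553476 to 600448 in DEX + TE. Of the 9 slow fiber markers 7 were higher by value, where 46.8% of all probe sets were, and 0 were called. Their sums, led by Myl3, which was lower in DEX, were 6588 to 11148, 6435 to 9027 and 5882 to 7779. Among the higher ones Myh7 was at 2.22 (adjusted p = 0.209). Its Control signals were 82.8, 22.9 and 75.9, which leaves the size uncertain. The 2 that were lower in DEX by value were Myl3 at −0.70 and Tpm3 at −0.35. The 10 skeletal muscle markers were all lower in DEX by value (median −0.32) with 0 called, with sums of 401613 to 512539, 328873 to 402165 and 385304 to 408871. Of all probe sets 0.232% were called higher and 0.27% lower in DEX. All fast fiber and skeletal muscle markers had a mean signal above 10000. Of the genes this bright 75.2% were lower in DEX by value, with a median of −0.15 that quantile normalization moved to −0.02. How far these markers depend on the scaling was not tested. No marker of any of these 8 lists was below 50 on every array.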

How the data were processed

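Labelled RNA (from 250 ng) of each tibialis anterior muscle, made with a GeneChip 3′IVT kit, had been hybridized to an Affymetrix mouse array of 45101 probe sets. The authors deposited 1 linear signal intensity per probe set and array, with a mean of 500 per array after trimming 2% at each end. The methods describe Robust Multi-array Average (RMA). How these linear, scaled intensities relate to it is not stated in the labels or the methods. The scaling leaves array medians that differ, and the closing section gives the effect of centring. The number of arrays limits the precision.

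Manufacturer controls were left out, which left 45037 probe sets, 34945 with 1 symbol in the array's annotation, 932 with several and 9160 with none. By Entrez number 34741 were found in RefSeq (GRCm38.p6), and 0 symbols changed. Intensities were converted to log2, and 29269 probe sets with a group mean log2 of at least log2 of 50 were tested. All 9 arrays entered 1 fit of limma 3.58.1 (R 4.3.3) with a mean for each of the 3 groups and Benjamini-Hochberg adjustment. Calls needed an adjusted p under 0.05 and a log2 difference of 0.6 or more in size. Rank Product, the methods' test, was run with 100 permutations in Python 3.11.15 (numpy 2.4.6, pandas 2.3.3). With 3 against 3 arrays an exact two-sided permutation test cannot go below 0.1, so none was used. Intervals are 95% intervals of limma. The fit was tested on simulated signals for DEX against Control. At an adjusted p under 0.05 it recovered 2 of 100 probe sets changed by a log2 of 0.6. Of 100 changed by 1 it recovered 27, with 2 false calls among the unchanged ones. A missing call is thus weak evidence that a gene did not change.

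Signals of single arrays are given for members with an adjusted p under 0.05 in any comparison, those whose groups do not overlap by 0.6 or more on the log2 scale, and the member of each role with the largest difference between DEX and Control. Other pathway genes are named where called, or as the 8 with the largest differences, and the few others were chosen once values had been seen. The members, lists and rules were chosen with earlier results of these data known. Figures were drawn with matplotlib 3.10.9.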

Additional observations from a re-analysis of the deposited data

How the results depend on the processing

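Signals near or below 50, such as those of Acot1 in Control, carry little information, and the 3 arrays a group limit the precision of every value. The count of 1 member called higher in DEX against Control became 0 without a filter on low signal, with only the 6 arrays compared, with the replicate number as a block, with Rank Product, and in each repeat without 1 array (0 to 0). Behind it stands the first Plin5 probe set, with an adjusted p of 0.0989, 0.0971 and 0.144 in the first 3 of these and a false discovery rate of 0.274 by Rank Product. Its second probe set, looked at after the data had been seen, kept its call in all 8 other limma settings (up to 0.0453) and in all 9 repeats.

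In DEX + TE against Control, 1 member was called higher (Plin5) with a filter at a group mean of 100, with 50 added to the signal, with a mean-variance trend or with another probe set, and 1 was called lower (Pdk4, adjusted p = 0.0124) with the trend. Repeats without 1 array gave 0 to 0 in both directions. Median centring moved the members' median to 0.18, −0.31 and −0.14 in DEX against Control, DEX + TE against DEX and DEX + TE against Control, and turned Etfdh in DEX against Control from −0.09 to 0.0093. The cause of these changes was not tested, beyond what each alternative changes by its construction. Over all alternatives, 147 values of the members' counts and medians stayed close to those reported and 21, given above, did not.

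Replicate numbers showed no pairing of the mice. Each array's deviations from its group mean were correlated over probe sets with those of arrays of other groups. The correlations ran from −0.02 to 0.05 for same-numbered arrays and from −0.04 to 0.04 for the others. With the replicate number as a block 0 members were called in DEX against Control. The block also ended the calls of Prkag3 (adjusted p = 0.0684), Gpihbp1 (0.135) and Oxct1 (0.107) there and of the same genes in DEX + TE against Control (0.145, 0.136 and 0.143). Using only the 6 arrays compared and Rank Product also ended all 6 of these calls, and leaving out the filter ended all but that of Prkag3 in DEX. Median centring ended those of Gpihbp1 and Oxct1 in DEX and of Prkag3 in DEX + TE, another probe set both of Oxct1, and quantile normalization that of Oxct1 in DEX + TE.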
